A study of Mus musculus with 6 samples.

Results

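The 10 genes described here encode proteins that sit on, build up or break down the lipid droplets of liver cells: Hsd17b13, Hsd17b11, Plin2, Plin3, Plin4, Plin5, Cideb, Cidec, Pnpla2 and G0s2. Members were all probe sets whose only platform gene symbol is one of these names. That gave 15 probe sets for 10 of 10 genes, out of 45037 probe sets tested and 18193 genes with a singly named probe set. The arrays measured total RNA from whole fetal livers at E18.5, 3 labelled control and 3 labelled null, with 1 array for each liver. All 6 embryos carried AlfpCre, a Cre recombinase transgene driven by albumin and alpha-fetoprotein regulatory elements and so directed to the hepatocyte lineage. The control livers (Control_8, Control_1192 and Control_1193) had 1 loxP-flanked and 1 unflanked Hnf4 allele, labelled Hnf4LoxP/+ AlfpCre. The null livers (Null_61, Null_1191 and Null_1195) had both alleles flanked, labelled HNF4LoxP/LoxP AlfpCre. The comparison asks which liver transcripts differ when HNF4 alpha, a nuclear receptor of the hepatocyte, is removed from that lineage. Cre could act on the flanked allele of the controls as well, so the contrast is of both alleles flanked against 1.

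A lipid droplet is a store of triglyceride and sterol ester that buds from the endoplasmic reticulum and is wrapped in a single layer of phospholipid, on which the coat proteins lie. The perilipins (the Plin genes) cover the surface and control the access of lipases, the CIDE proteins exchange or package lipid between droplets and secreted particles, and adipose triglyceride lipase, encoded by Pnpla2, takes the first step of triglyceride breakdown. In the hepatocyte the droplet stands between the synthesis of triglyceride, its oxidation in mitochondria and its export in very low density lipoprotein (VLDL). HSD17B13 and HSD17B11 are related short-chain dehydrogenases found on droplets, the former mostly in liver.

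The promoters of 3 members are shown because these are the gene with the largest fall, its neighbour on the chromosome, and the gene with the second largest fall. Each is 300 bases long, from 250 bases before to 50 after the annotated start, from RefSeq on GRCm38.p6, printed 5′ to 3′ on the gene's strand. The files of the arrays name no genome build. Capitals mark CAAAGTC, or its reverse complement GACTTTG, the start of the 9-base sequence CAAAGTCCA that HNF4 alpha is known to bind.
Hsd17b13, chr5:103977339-103977638, minus strand: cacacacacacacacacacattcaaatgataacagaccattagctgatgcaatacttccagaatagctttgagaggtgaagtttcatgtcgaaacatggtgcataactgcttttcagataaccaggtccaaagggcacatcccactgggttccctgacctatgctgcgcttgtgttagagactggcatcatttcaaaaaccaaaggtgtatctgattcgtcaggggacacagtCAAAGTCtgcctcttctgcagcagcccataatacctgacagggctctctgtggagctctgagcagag
Hsd17b11, chr5:104021747-104022046, minus strand: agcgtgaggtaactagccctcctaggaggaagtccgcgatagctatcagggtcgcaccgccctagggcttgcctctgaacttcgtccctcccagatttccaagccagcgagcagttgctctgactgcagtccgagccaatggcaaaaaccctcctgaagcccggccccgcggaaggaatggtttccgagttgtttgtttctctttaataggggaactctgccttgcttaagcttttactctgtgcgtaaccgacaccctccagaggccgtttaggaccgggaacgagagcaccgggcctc
Cideb, chr14:55758375-55758674, minus strand: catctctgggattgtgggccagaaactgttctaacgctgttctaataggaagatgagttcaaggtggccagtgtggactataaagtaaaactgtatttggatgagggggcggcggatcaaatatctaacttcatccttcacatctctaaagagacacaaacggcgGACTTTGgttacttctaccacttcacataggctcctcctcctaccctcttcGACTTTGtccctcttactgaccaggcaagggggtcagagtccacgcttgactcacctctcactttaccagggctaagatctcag

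In the Hsd17b13 promoter CAAAGTC began 17 bases before the annotated start. The Cideb promoter held it 2 times on the opposite strand, 85 and 34 bases before the start, and the Hsd17b11 promoter held no match. Of the 10 genes, 2 had the 7-base sequence on either strand in a promoter of the table, and 1350 of all 27025 genes did. Counted as promoters, 1459 of all 32851 (4.44%) had it. This short sequence was searched after the promoters had been seen. The full motifs CAAAGTCCA and CAAAGTTCA and the DR1 element, a direct repeat of the half-site AGGNCA with 1 base between, were found in 0 of the 10 genes and in 0.475%, 0.39% and 0.381% of all promoters. CAAAGTCCA contains CAAAGTC, so these searches overlap. Only exact matches were counted, with N as any base, so similar sequences with a mismatch were not looked for. A match is a string of letters in a window and does not show binding.

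Transcripts of 7 of the 10 genes fell in the null livers and 1 rose, taking for each gene its brightest probe set. Hsd17b13 signal went from the bright range to the background of the arrays. Cideb, Hsd17b11 and Plin5 fell between 3.88-fold and 7.74-fold, G0s2 fell 2.33-fold, and the coat genes Plin3 and Plin2 fell 1.63-fold and 1.58-fold. Plin4 rose from a dim level. Pnpla2 and Cidec did not pass the test. Counted as probe sets, 9 of 15 fell and 1 rose, where 5.55% of all probe sets fell and 1.46% rose. At the level of genes, 7.85% of all 18193 fell and 1.56% rose. A probe set counted as called at an adjusted p under 0.05 from limma, with Benjamini-Hochberg adjustment over all 45037 probe sets. The median log2 change was -0.96 over the 10 genes and 0.01 over all genes.

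Values below are deposited intensities, which are on a linear scale. Those with ± are means and SD over 3 arrays, and the depth of sequencing has no counterpart here, so the number of arrays limits the precision. Log2 changes are null minus control after values below 0 were set to 0 and 32 was added, which understates the change of dim probe sets. A fold is 2 to the power of such a change, and it was left out for a group with a mean under 99.6, the highest of the 6 array medians. Array medians ran from 91.8 to 99.6. The labels do not say which livers shared a litter, and the p values reflect only how much these 6 arrays vary.

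Hnf4a itself read 62.2% to 73.7% of the control mean in its 4 probe sets, and 2 of these were called lower. Its brightest probe set, 1427001_s_at, read 2607, 2817 and 2877 in the control livers and 1778, 1562 and 2778 in Null_61, Null_1191 and Null_1195 (adjusted p = 0.194). Null_1195 was inside the control range in that probe set. In the other 3 it read 834, 1395 and 327 and lay below every control, at 1127 to 1201, 1796 to 1954 and 492 to 537, as did Null_61 and Null_1191. The position of the probe sets against the flanked part is not given, and the remaining signal is only a partial check of the labels. Control_8 and Null_61 stood apart from the other arrays, with a 5′ 18S ribosomal RNA control signal of 42.1 and 33.5 against 449 to 616.5. By Xist and Y-linked signal 1 control (Control_8) and 2 nulls (Null_1191 and Null_1195) were female and the rest male, so embryo sex is unequal between groups. Without 1 array, the number of all probe sets that rose was 292 (Control_8), 211 (Control_1192), 288 (Control_1193), 1499 (Null_61), 281 (Null_1191) or 304 (Null_1195), in place of 658, and without Control_1192 the number that fell was 1534 in place of 2501. Falls made up 79.2% of the calls over all probe sets, and 64.4% after quantile normalization.

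The hepatocyte markers Alb and Afp were bright in both groups, and neither was called. Alb, for albumin, read 10532 ± 270 in the control livers and 10651 ± 460 in the null livers, and Afp, for alpha-fetoprotein, read 11969 ± 36.6 and 11463 ± 140, both near the top of the arrays' range. Of 10 measured hepatocyte markers 8 fell and 0 rose. Among the 8, Tat fell from 425 ± 95.6 to 104 ± 19.2, close to the highest array median. The summed intensity of all 10 was 77264 to 77930 in the control livers and 48438 to 52570 in the null livers. In whole livers, fewer cells of a type and less RNA per cell cannot be told apart. The part of this fall in the changes of the droplet genes was not tested.

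**Figure D1:**
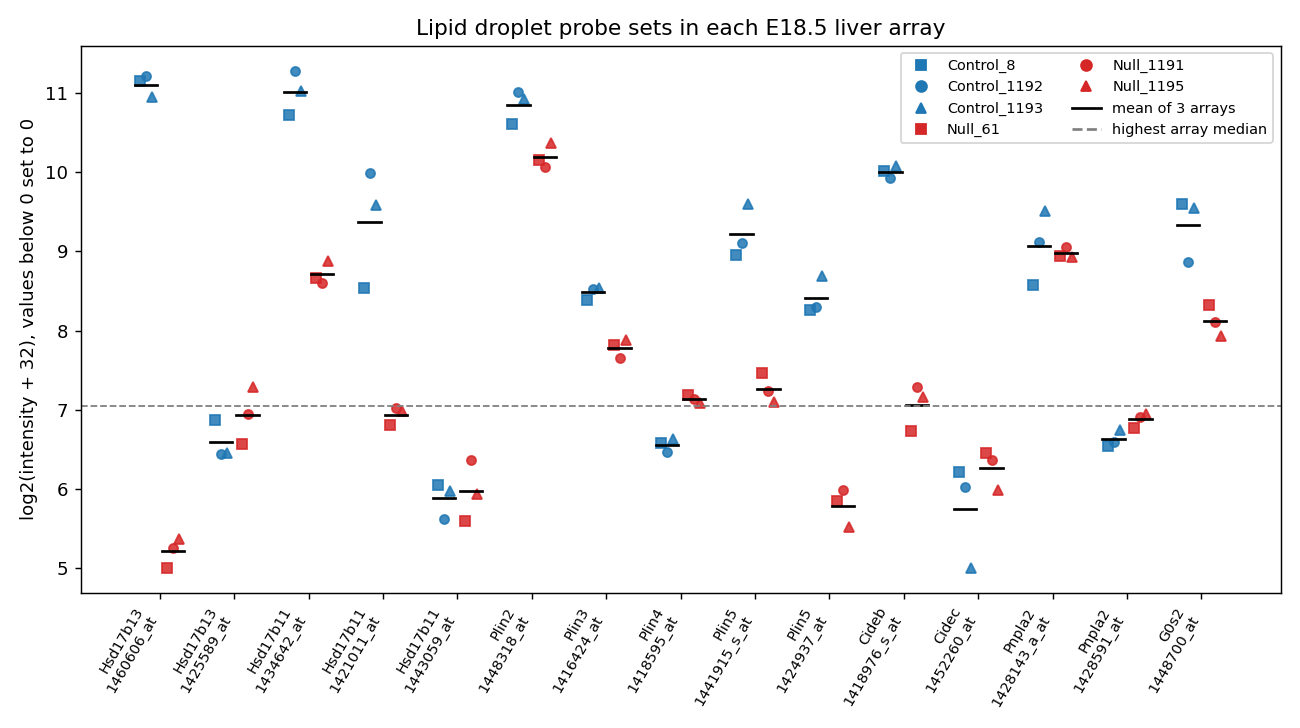
Intensity of the 15 lipid droplet probe sets in each of the 6 arrays, as log2 of the intensity plus 32 (y axis), with controls in blue, nulls in red, black bars for the mean of 3 arrays and a dashed line at the highest array median, 99.6. In 9 probe sets all 3 null points lie below all 3 control points, and Hsd17b13 1460606_at spans the widest distance.

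Both 17-beta dehydrogenases of the droplet fell in their brightest probe sets, and Hsd17b13 had the largest change of the 15. Its probe set 1460606_at read 2259, 2342 and 1954 in Control_8, Control_1192 and Control_1193, and -10.6, 6.13 and 9.25 in Null_61, Null_1191 and Null_1195. All 3 nulls were at background, with Null_61 below 0, and all 3 controls were bright. The means were 2185 ± 204 and 1.60 ± 10.7, and set against the highest array median of 99.6 the fall was at least 21.9-fold. The log2 change was -5.90 (95% interval -6.22 to -5.59, limma adjusted p = 1.1e-07), a size that depends on the pseudocount: it was -9.03 with 1 and -4.44 with 100 in place of 32. The other probe set of the gene, 1425589_at, read 65.0 ± 17.2 in the control livers and 92.7 ± 30.4 in the null livers, with overlapping groups and both means under the highest array median. It did not pass the test (log2 change 0.35, adjusted p = 0.368), although it was called higher in the 4 arrays with 4-digit title numbers alone (0.67, adjusted p = 0.0365). With the mean of both probe sets the gene had a log2 change of -2.78.

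Hsd17b11 encodes the closest relative among the members and is expressed in many tissues. Its brightest probe set, 1434642_at, read 1663, 2463 and 2061 in the control livers and 372, 358 and 440 in the null livers. The groups were far apart, and the mean fell from 2062 ± 400 to 390 ± 43.9, to 18.9% of the control level (4.92-fold, log2 change -2.30, standard error 0.16, adjusted p = 3.3e-05). A second one, 1421011_at, read 338, 983 and 740 in the control livers and 79.5, 97.4 and 94.97 in the null livers. Control_8 was the lowest control there, and it still lay well above the highest null. That probe set had a log2 change of -2.44 (adjusted p = 0.0018), at least 6.29-fold against the highest array median. The third, 1443059_at, read 27.3 ± 8.83 and 31.9 ± 17.1, below the median of every array, and was not called (adjusted p = 0.861). Its log2 change of 0.09 turned to -0.047 with embryo sex as a term, to -0.043 without Control_1192 and to -0.11 without Null_1191.

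Among the other members of the 17-beta dehydrogenase family, whose enzymes act on steroids, retinoids or fatty acids, 4 of 9 measured genes fell and 0 rose (1 without Null_61 or in the 4 arrays with 4-digit title numbers). Hsd17b2, which inactivates estradiol and testosterone, fell from 1245 ± 161 to 30.1 ± 5.26 (log2 change -4.36). Hsd17b4, the peroxisomal multifunctional enzyme of beta oxidation, fell from 843 ± 67.8 to 320 ± 30.7, and Hsd17b10, a mitochondrial enzyme, from 960 ± 47.3 to 450 ± 74.9. Hsd17b7 (205 ± 19.5 and 153 ± 74.4) and Hsd17b3 (111 ± 35.8 and 174 ± 78.4) did not pass the test.

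Hsd17b13 and Hsd17b11 lie next to each other on chromosome 5 in the reference order. Of the other measured genes up to 3 places away, 1700016H13Rik, Aff1, Klhl8 and Nudt9 had log2 changes of 0.23, 0.18, 0.11 and -0.26, and none was called (adjusted p from 0.439 to 0.758). The Plin4 and Plin5 genes are neighbours on chromosome 17 and moved in opposite directions. On the other side of Plin5 lies Lrg1, for a secreted leucine-rich glycoprotein, which fell from 1233 ± 171 to 281 ± 94.7 (log2 change -2.05, adjusted p = 0.000413). The other 4 measured neighbours of Plin5, namely Ubxn6, Hdgfl2, Sema6b and Tnfaip8l1, had log2 changes of -0.20, -0.15, 0.19 and 0.19, and none was called. Of the 5 measured genes near Cideb, with log2 changes from -0.44 to 0.18, none was called. These neighbours were looked up after the values of the members were known.

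**Figure D2:**
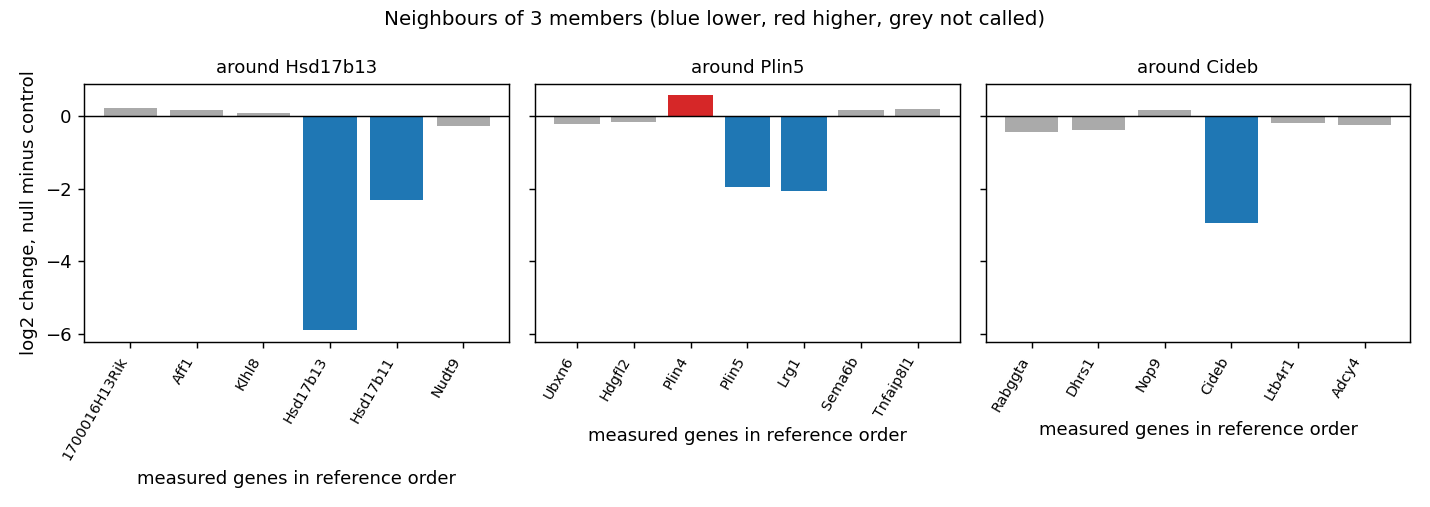
Log2 change, null minus control (y axis), of the measured genes up to 3 places from Hsd17b13, Plin5 and Cideb in the order of the reference annotation (x axis), with blue for called lower, red for called higher and grey for not called. Hsd17b13 and Hsd17b11 fell side by side, and Plin4 at 0.58 stands next to Plin5 at -1.95.

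The perilipins differed in direction and size. Plin5, the perilipin of oxidative tissues, which holds droplets close to mitochondria, fell in both of its probe sets. Probe set 1441915_s_at read 464, 518 and 745 in the control livers and 144, 118 and 105 in the null livers, a fall from 576 ± 149 to 123 ± 19.9 (3.88-fold, log2 change -1.95, standard error 0.18, adjusted p = 0.000252). The other, 1424937_at, read 274, 283 and 381 in the control livers and 25.2, 31.3 and 13.6 in the null livers. Control_1193 was the highest control in both, and neither probe set had overlapping groups. The second probe set's log2 change was -2.64 (adjusted p = 2.4e-05), at least 3.10-fold against the highest array median, and it ranged from -3.74 with a pseudocount of 1 to -1.74 with 100.

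Plin2, the main coat protein of hepatocyte droplets, kept most of its signal. It read 1531, 2041 and 1918 in the control livers and 1106, 1040 and 1293 in the null livers. The lowest control was above the highest null, by a margin smaller than the control SD and larger than the null SD. The mean fell from 1830 ± 267 to 1146 ± 131, which is 62.6% of the control level (log2 change -0.66, standard error 0.14, adjusted p = 0.0237). The call of Plin2 was lost without Control_1192 (adjusted p = 0.118), Control_1193 (0.104) or Null_1191 (0.100), with quantile normalization (0.0707) and with embryo sex as a term (0.0713), while the log2 change stayed between -0.78 and -0.43 over all alternatives.

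Plin3, a perilipin of the cytosol that coats small new droplets, fell by a like proportion with less spread. It read 303, 338 and 339 in the control livers and 193, 169 and 203 in the null livers. The groups stood clearly apart, at 326 ± 20.5 and 189 ± 17.4, so that 57.7% of the control level remained (log2 change -0.70, standard error 0.12, adjusted p = 0.0079). Without Control_1192 the adjusted p was 0.0518.

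Plin4, a perilipin known from adipocytes and muscle, was the only member that rose. It read 63.2, 56.0 and 66.6 in the control livers, each under the median of its array, and 114, 109 and 103 in the null livers, each above it. The arrays of each group lay close together, at 61.9 ± 5.42 and 109 ± 5.10, and the log2 change was 0.58 (standard error 0.12, adjusted p = 0.0177). The call was lost without Control_8 (0.0576), Control_1192 (0.0921), Control_1193 (0.0537) or Null_1191 (0.0685). It has 1 probe set, so no second measurement of the gene exists here. Of 6 measured adipocyte markers 0 were called, with a summed intensity of 976 to 1103 in the control livers and 673 to 1012 in the null livers. A large part of these sums came from 1 gene, Fabp4, which read 697 ± 131 and 444 ± 169. Adipoq, the defining adipocyte hormone gene, read 20.8 ± 37.5 and 16.2 ± 11.9, and 4 of the 6 had both means under the highest array median. Of 12 striated muscle markers 1 fell (Tnni2) and 0 rose, with sums of 1317 to 1454 and 1007 to 1130. Of these 12, 8 had both means under the highest array median. Whether either cell type has a part in the rise of Plin4 was not tested beyond these values.

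Of the 2 CIDE genes among the members 1 fell and the other was near background. Cideb encodes the liver member of the family, which acts in the loading of lipid onto VLDL and in droplet fusion. It read 1000, 939 and 1053 in the control livers and 74.0, 124 and 110 in the null livers. The controls were close together, and all 3 nulls were near the median of their arrays, Null_61 below it. The mean fell from 998 ± 57.2 to 103 ± 25.7, to 10.3% of the control level (7.74-fold, log2 change -2.95, standard error 0.16, adjusted p = 7.6e-06). The name of this probe set, 1418976_s_at, marks it as one that can match more than 1 transcript, as does that of 1441915_s_at for Plin5, and no second singly named probe set of Cideb is analysed here.

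Cidec, the fat-storing member that promotes large droplets in adipocytes and in fatty liver, was near background in every array. It read 42.1, 32.8 and -0.453 in the control livers and 55.3, 50.1 and 31.3 in the null livers. The groups overlapped and each value lay under its array's median. Its log2 change of 0.52 had a 95% interval from -0.17 to 1.21 and did not pass the test (adjusted p = 0.366). A change of Cidec was therefore not measurable at this signal.

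The lipase and its inhibitor behaved differently in the test. Pnpla2 probe set 1428143_a_at read 348, 524 and 698 in the control livers and 460, 502 and 457 in the null livers. The nulls lay inside the wide range that Control_8 and Control_1193 span. The means were 523 ± 175 and 473 ± 25.3, and the log2 change of -0.09 had a 95% interval from -0.57 to 0.40 (adjusted p = 0.853), so changes within that interval cannot be told from none. Its sign depended on the setting: it was 0.080 with quantile normalization, 0.027 with embryo sex as a term and 0.13 without Control_1193. The dim probe set 1428591_at read 66.9 ± 7.59 and 85.5 ± 7.70, with all nulls above all controls, and was not called either (log2 change 0.25, adjusted p = 0.293).

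G0s2, which encodes the inhibitor of this lipase, fell. It read 742, 434 and 718 in the control livers and 288, 243 and 212 in the null livers. Control_1192 was low among the controls and still above every null. The mean went from 631 ± 171 to 248 ± 38.2, to 39.2% of the control level (2.33-fold, log2 change -1.22, standard error 0.21, adjusted p = 0.0077). Over all alternatives the log2 change of G0s2 stayed between -1.46 and -1.05 and the largest adjusted p was 0.0427. Whether the changes of G0s2 and Pnpla2 differ from each other was not tested.

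**Figure D3:**
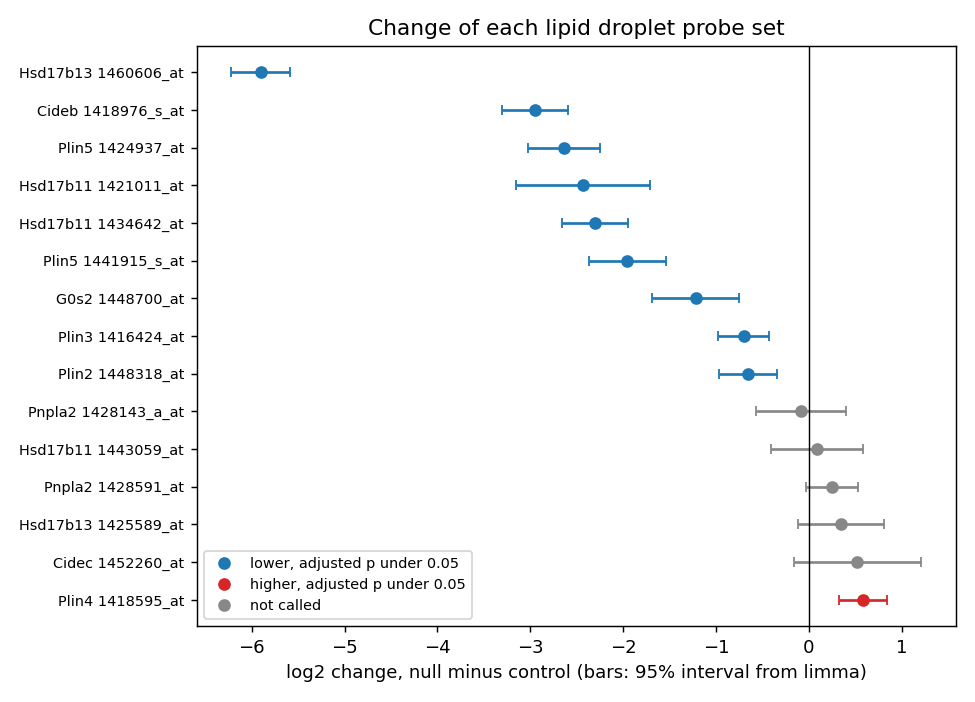
Log2 change, null minus control (x axis), of each lipid droplet probe set with its 95% interval from limma, with blue for called lower, red for called higher and grey for not called. The falls reach from -0.66 for Plin2 to -5.90 for Hsd17b13, and the intervals of the 5 grey probe sets include 0.

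In 11 of the 15 probe sets the groups did not overlap, 9 with the nulls below and 2 with the nulls above (Plin4 and the dim Pnpla2 probe set), where 27.4% of all probe sets had groups that did not overlap, 13.8% with the nulls below and 13.6% with the nulls above.

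The pair of arrays that stood apart had the same sign as the other 4 arrays in 12 of the 15 probe sets. The 3 with opposite signs were not called with all arrays: Null_61 minus Control_8 was -0.30 for Hsd17b13 1425589_at, -0.44 for Hsd17b11 1443059_at and 0.37 for Pnpla2 1428143_a_at, against 0.67, 0.35 and -0.32 in the 4 arrays. The 10 called probe sets were called with this pair among the arrays, so their like signs are no separate evidence. In these, Null_61 minus Control_8 was -6.16 for Hsd17b13, -3.28 for Cideb, -2.07 and -1.73 for the 2 called probe sets of Hsd17b11, -1.27 for G0s2, -0.58 for Plin3, -0.46 for Plin2 and 0.61 for Plin4, on the log2 scale. In the other 4 arrays the log2 changes were -5.78, -2.79, -2.41, -2.79, -1.19, -0.77, -0.75 and 0.57 in the same order, and all 9 falls and the rise of Plin4 passed the test there. Plin5 had -1.49 and -2.42 in the pair and -2.19 and -2.75 in the 4 arrays.

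The transcripts most like each member were looked up as the 3 other genes with the smallest root mean square difference in log2 values centred on the mean of the 6 arrays. For Hsd17b13 these were Itih4, F13b and Hrg, all of which encode plasma proteins of the liver, at 0.139, 0.181 and 0.283. For Cideb they were Adh1, Hal and Agmat at 0.100, 0.113 and 0.136. For Hsd17b11 they were 2610528J11Rik, Bdh1 and 4933422A05Rik at 0.0885, 0.127 and 0.137, and for Plin5 they were Slamf7, Ddc and Cdip1 at 0.121, 0.148 and 0.162. Those of G0s2 were Cdkn1c, Gcdh and Slc25a41 at 0.151, 0.162 and 0.174. The members with smaller changes were matched by Arhgap5, Pgap1 and Bmp1 for Plin2 at 0.0337, 0.0499 and 0.0675, Slc25a15, Mmut and Myo10 for Plin3 at 0.0250, 0.0348 and 0.0413, and 4930592C13Rik, 6330403K07Rik and Zfyve16 for Plin4 at 0.0381, 0.0431 and 0.050. The measure rests on 6 arrays in 2 groups and mostly reflects the size of the difference between groups. Slamf7 (control mean 95.03, null mean -59.97), 6330403K07Rik (45.98, 80.31), Zfyve16 (10.45, 31.93) and Slc25a41 (70.75, 12.09) had both means under the highest array median. Itih4, F13b and Hrg were bright in the controls, with null means of 46.72, 8.99 and -37.77. The changes of such dim signals depend on the 32 added. Others, such as Adh1 (5460, 620.5), were bright in both groups.

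Over all genes 7.85% fell and 1.56% rose, and the other genes of the droplet are read beside these shares. The counts of the lists here and below were not tested against them. Of 17 measured genes of droplet coat and remodelling proteins 2 fell and 0 rose, with a median log2 change of -0.05. Dhrs3, a retinal reductase found on droplets, fell from 435 ± 49.6 to 223 ± 32.5 (adjusted p = 0.0057), and Faf2, which carries the degradation machinery to droplets, fell from 344 ± 40.7 to 223 ± 14.6 (adjusted p = 0.0340). Lpcat1, which makes phosphatidylcholine, read 879 ± 270 and 1219 ± 335, and Rab18, a small GTPase of droplets, read 817 ± 66.7 and 790 ± 84.3, both not called. With quantile normalization 1 gene of this list was called lower and 1 higher, and with the mean of a gene's probe sets 5 were called lower. With the run of title numbers as a block 4 were called lower and 2 higher, and in the 4 arrays with 4-digit numbers 2 lower and 1 higher. Without Control_1192, Control_1193 or Null_1191, or with embryo sex as a term, 1 was called lower. Of 6 genes of droplet formation at the endoplasmic reticulum 1 fell: Fitm2, which helps triglyceride bud into droplets, went from 230 ± 12.7 to 131 ± 16.8 (adjusted p = 0.0112). That call was lost without Control_1192, Control_1193 or Null_1191. Reep5, which shapes the endoplasmic reticulum (1109 ± 169 and 1649 ± 415), and Fitm1, a relative of Fitm2 (562 ± 41.5 and 627 ± 76.3), were not called. With quantile normalization 1 gene of that list was called higher beside the 1 lower, and 1 was called higher without Null_61, with the number run as a block and in the 4 arrays alone.

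Genes that supply the droplet with triglyceride fell at several steps. Of 16 measured genes of triglyceride synthesis 5 fell and 0 rose, with 1 rise after quantile normalization, without Null_61 or in the 4 arrays alone. Lpin1, a phosphatidate phosphatase that makes diacylglycerol, fell 7.17-fold, from 1904 ± 85.2 to 243 ± 63.9. Dgat2, which adds the last fatty acid, fell from 1638 ± 13.7 to 594 ± 33.6, and Agpat2, which makes phosphatidate, from 735 ± 94.5 to 201 ± 5.12. Agpat3 and Gpat3 were the other 2 that fell. Gpam, the mitochondrial acyltransferase of the first step, read 1693 ± 248 and 1054 ± 294 and did not pass the test (adjusted p = 0.0711), and Agpat4 read 889 ± 64.0 and 1128 ± 124. The median log2 change of the list was -0.18.

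Of 12 genes of fatty acid uptake and binding 6 fell and 0 rose, with a median of -0.51. There were 2 rises with the mean of a gene's probe sets, and 1 without Null_1195, with embryo sex as a term or with the number run as a block. Slc27a5, a bile acid and fatty acid ligase, fell from 584 ± 64.6 to 37.4 ± 10.9, Fabp1, the liver fatty acid-binding protein, from 5668 ± 362 to 867 ± 141, and Slc27a2, an acyl-CoA synthetase that aids uptake, from 2942 ± 304 to 327 ± 90.3. Fabp4 (697 ± 131 and 444 ± 169) and Cd36, a fatty acid receptor of many cell types (403 ± 45.2 and 393 ± 55.8), were not called.

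On the side of breakdown and export, 3 of 10 lipase genes fell and 0 rose. In the list for sterol ester formation and lipid transfer to VLDL, the export list below, 3 of 4 measured genes fell and 0 rose. Soat1 and Soat2, the genes of that list for sterol ester formation, were not among the 4, so that step was not measured. Aadac, a microsomal esterase, fell from 1749 ± 209 to 35.2 ± 3.35, and Ces1d, a triglyceride hydrolase of the endoplasmic reticulum, from 1763 ± 415 to 47.7 ± 2.43. Lipa, the lysosomal acid lipase, fell from 839 ± 23.8 to 274 ± 64.1. Mgll, which cleaves monoglyceride, read 626 ± 116 and 545 ± 13.4, and Ddhd2, a triglyceride lipase best known in brain, read 212 ± 23.0 and 186 ± 5.14, both not called. In the export list Apob, the structural protein of VLDL, had a log2 change of -6.25, Mttp, which loads lipid onto it, fell from 653 ± 6.47 to 140 ± 10.3 (log2 change -1.99), and Tm6sf2, a lipid transfer factor, from 93.3 ± 17.8 to 38.1 ± 10.5, while Nceh1, a hydrolase of sterol esters, read 323 ± 21.3 and 313 ± 18.4. Both means of Tm6sf2 lay under the highest array median. Without Control_8, Control_1192 or Null_1191 the export list had 2 falls in place of 3. The medians of the lipase and export lists were -0.40 and -1.42.

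Of 12 measured targets of PPAR alpha, the receptor of the fasting response, which also acts on Plin2 and Plin5, 9 fell and 0 rose, with a median of -1.20 and 1 rise after quantile normalization, with the number run as a block or without Null_1191. Angptl4, Cyp4a14 and Ehhadh had the smallest adjusted p, with log2 changes of -2.05, -4.54 and -3.17. Angptl4 has 2 probe sets, and only the brightest, which gave this value, was called lower. Slc25a20, the carnitine carrier of mitochondria (689 ± 162 and 401 ± 100.5), and Acot1, a thioesterase of fatty acyl-CoA (317 ± 43.8 and 502 ± 101), were not called. Ppara itself read 664 ± 26.0 in the control livers and 583 ± 48.2 in the null livers and was not called (log2 change -0.18, adjusted p = 0.392). Of 16 regulators of lipid droplet genes 4 fell and 0 rose, namely Cebpa (log2 change -1.70), Creb3l3 (-1.12), Insig2 (-0.99) and Nr1h4. Srebf1, for the factor that drives fatty acid synthesis, read 1459 ± 128 and 1156 ± 466 and was not called.

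**Figure D4:**
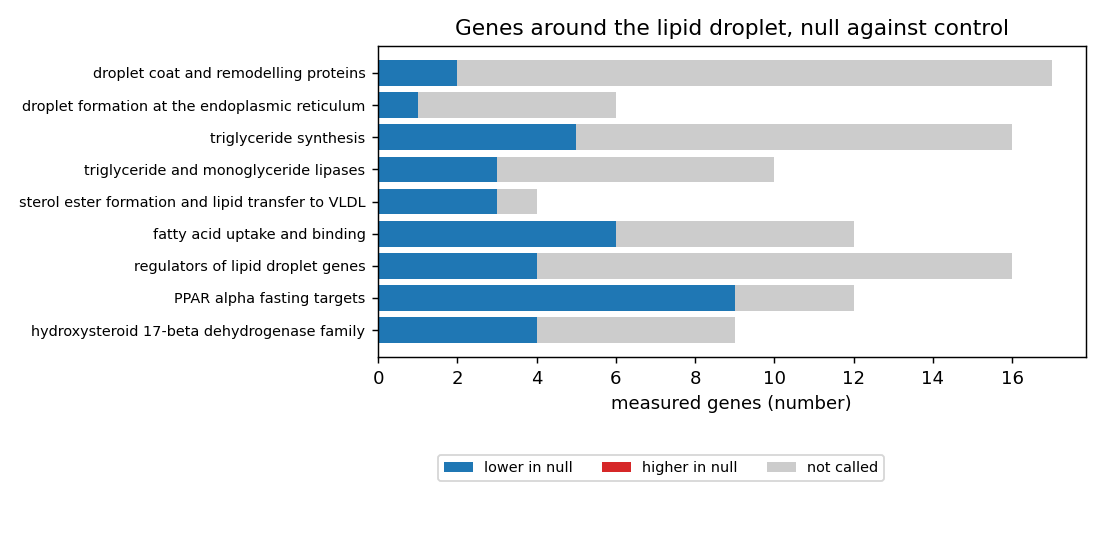
Number of measured genes (x axis) called lower, called higher or not called in the null livers, for 9 lists of genes around the lipid droplet. The list of PPAR alpha targets has 9 of 12 called lower and that of droplet coat and remodelling proteins 2 of 17, beside 7.85% of all genes.

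Markers of other cell types of the liver were read in the same arrays. Of 12 stellate and mesenchymal markers 0 were called, with summed intensities of 4661 to 5637 in the control livers and 5676 to 8153 in the null livers. Of 11 macrophage and Kupffer cell markers 3 rose and 0 fell, with sums of 4219 to 4669 and 5776 to 9216. Of 9 endothelial markers 3 fell, with sums of 2180 to 2457 and 1578 to 1903. Of 8 erythroid and 8 neutrophil markers 0 were called, with sums of 16564 to 17390 against 18471 to 18981 and of 30242 to 34078 against 27789 to 34497. The part of these cells in the changes of the droplet genes, Plin2 and Plin3 among them, was not tested.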

How the data were processed

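Per the labels' protocols, total RNA from a spin-column kit was biotin-labelled by Affymetrix's standard method. The deposited values are linear probe-set intensities, 1 per probe set and array. Some lie below 0, so a background or mismatch signal had been subtracted. Which software, summarisation, scaling and genome build the authors used is not given in the sources. The log2 of each value plus 32 was taken, with negative values as 0. Array medians on this scale differed by at most 0.0877, and the deposited scaling was kept. The 64 control probe sets among 45101 were not tested. The platform annotation gave 1 symbol to 34945 of the 45037 tested, several to 932 and none to 9160. A gene in a list was represented by its brightest singly named probe set, and no filter on low values was used. Of the 15 member probe sets, 10 had a mean above the median of all.

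Groups came from the titles. All 6 arrays were fitted with limma 3.58.1 in R 4.3.3 (lmFit, and eBayes with an intensity trend, two-sided, no covariate), and p values were adjusted by Benjamini-Hochberg over all probe sets, with a threshold of 0.05. The smallest two-sided p of an exact permutation test with 3 against 3 is 0.1, and no such test was run. The limma fit was first tested on simulated data. The members and lists were chosen with earlier results of these data known. The genes named are all members, Hnf4a, and of each list up to 3 called in each direction with the smallest adjusted p and the 2 brightest not called; Agpat3, Gpat3, Nr1h4, Tnni2, the neighbours, single markers and the 7-base sequence were added after their values were seen. Promoters and gene order come from RefSeq tables of GRCm38.p6, where all 10 genes matched by symbol. The alternatives were quantile normalization, centred medians, a pseudocount of 1 and of 100, a filter at the median level, no trend, the run of title numbers as a block or its 4 arrays alone, embryo sex as a term, the mean of a gene's probe sets, and each array left out.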

Additional observations from a re-analysis of the deposited data

How the results depend on the processing

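The number of lipid droplet probe sets that fell stayed at 8 or 9 under the 9 alternatives that keep all arrays or the 4 arrays alone, and at 7 to 9 when 1 array was left out. The number that rose was 2 in the 4 arrays with 4-digit title numbers, 0 with only probe sets above the median level, where Plin4 is not tested, and 0 to 1 when 1 array was left out. The calls lost were those of Plin2, Plin3 and Plin4, and the cause was not tested. The calls of Hsd17b13, Hsd17b11, Plin5, Cideb and G0s2 held under every alternative run. Over all probe sets, 1181 rose with quantile normalization, 1143 in the 4 arrays alone, 1865 with the number run as a block and 366 with embryo sex as a term, in place of 658. When 1 array was left out, 211 to 1499 rose and 1534 to 3197 fell, in place of 658 and 2501. The signs that turned, in probe sets that were not called, were those of Pnpla2 1428143_a_at (0.080 with quantile normalization, 0.027 with embryo sex as a term, and from -0.34 to 0.13 with 1 array left out) and Hsd17b11 1443059_at (-0.047 with embryo sex as a term, and from -0.11 to 0.27 with 1 array left out). Of 288 counts of genes in the related lists under alternatives, 259 stayed within 1.5 times the count reported. No paired analysis was possible because the groups share no replicate number. The low signal of Cidec, of Plin4 in the controls and of the second probe sets of Hsd17b13 and Pnpla2 limits what can be measured there.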
